A study of Homo sapiens with 6 samples.

Results

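Transcripts of 9 genes that build and fire the T cell antigen receptor were followed in RPMI-8402, a human T-cell acute lymphoblastic leukaemia (T-ALL) line. The 9 genes are the CD3 chains CD3D, CD3E, CD3G and CD247, the kinases LCK, FYN and ZAP70, and the adaptors LAT and LCP2. They were chosen by name, as the rows of the count table whose gene symbol is on that list, and each symbol had 1 row among 63677 genes. All 9 passed the filter on low counts, as did 15949 genes in all. The DOX cells carried Cas9 stably and received doxycycline for 72 hours, which switched on guide RNAs. The DMSO cells carried the same Cas9 and received the solvent instead, with the genotype label control. By the design text the guides cut both MYC and MYCN, whereas the treatment description mentions MYC alone and DOX samples have the genotype MYCN_knockout. Both groups grew in medium with tetracycline-free serum, and whether the line was a single clone was not given in the sources used here. There were 3 libraries in each group. Their names join the group to a number taken from the count table's header, giving DOX 12, 24 and 36, and DMSO 11, 23 and 35. DOX cells without guides were not analysed here, so the drug and the guides cannot be told apart.

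The receptor's antigen-binding chains have almost no tail inside the cell, and the CD3 chains carry the signal for them. CD3E pairs with CD3D or with CD3G, while CD247, the zeta chain, pairs with itself. When the receptor is engaged, LCK phosphorylates tyrosine motifs in the CD3 tails, ZAP70 docks on them, and ZAP70 then phosphorylates LAT and LCP2 (the protein SLP-76), on which calcium and RAS signalling assemble. Immature thymocytes use the same machinery with the pre-T-cell receptor, whose alpha-like chain is PTCRA, and T-ALL arises from such cells. These are background facts and not results of these data.

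Total counts ran from 28602145 to 28911373 in DOX libraries and from 28952786 to 29204148 in DMSO libraries. MYCN, a targeted transcription factor, was at 49.9 ± 3.79 CPM in DOX and 91.0 ± 16.7 CPM in DMSO (mean ± SD, n = 3 each; CPM are counts scaled to library size), and the other target, MYC, was at 200 ± 6.55 and 245 ± 39.7 CPM. Over 9308 genes of at least 10 CPM, the library DMSO 11 lay 0.41 to 0.43 (root mean square log2 distance) from the other DMSO libraries and 0.18 to 0.21 from the DOX libraries. Over the 9 receptor genes alone it was no closer to DOX: its distances were 0.24 to 0.31 to the DOX libraries and 0.20 and 0.27 to the other DMSO libraries. Results are therefore given with and without DMSO 11. Of 9 T-ALL markers, 8 passed the filter, and CD7 stood at 101 ± 1.43 CPM in DOX and 99.4 ± 4.56 CPM in DMSO, while CD1A was below 1 CPM. EdgeR called 0 of the 8, where it called 0.0313% of all genes. DESeq2 called 2 of the 8 lower and 0 higher, where it called 6.44% of all genes lower and 3.37% higher. They were LMO1 and PTCRA, the latter given with the receptor chains. LMO1, a T-ALL oncogene, was at 126, 119 and 123 CPM in DOX, against 155, 161 and 156 CPM in DMSO. Its log2 fold change was -0.36 ± 0.074 (DESeq2 adjusted p = 0.00245, edgeR adjusted p = 0.0891). CD2 set DMSO 11 apart, with 15.4, 14.7 and 13.5 CPM in DOX, against 19.6, 5.35 and 6.96 CPM in DMSO 11, 23 and 35. Summed over their lists, B cell markers held 6.58 to 8.27 CPM in DOX and 5.82 to 7.68 in DMSO, and myeloid markers 1.63 to 1.98 in DOX and 1.01 to 1.69 in DMSO. NK cell markers held 36.9 to 39.4 CPM in DOX and 38.1 to 47.8 in DMSO, most of it from NKG7, with NCR1 and KLRF1 at 0 counts. The gene ID of the NCR1 row had no entry in the annotation used for exon lengths, so its 0 counts may not describe the gene. MS4A1 (B cell) and CD33 (myeloid) also had 0 counts in every library. The part of these markers in the results was not tested.

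Promoter stretches are shown for 3 genes on which the comparison turns: CD3D, whose DMSO libraries were widely spread, ZAP70, where each DOX library was lower than each DMSO library, and LAT, the gene with the largest fold change. Each runs 5′ to 3′ from 250 bases before to 50 bases after an annotated start, from RefSeq on GRCh38.p14. Capitals mark 4 motifs searched on both strands: CACGTG, the E-box that MYC family dimers are known to bind, AGGAAG, an ETS-like core, TGTGGT, a RUNX-like core, and CAGCTG, another E-box.
CD3D (chr11:118342656-118342955, minus strand): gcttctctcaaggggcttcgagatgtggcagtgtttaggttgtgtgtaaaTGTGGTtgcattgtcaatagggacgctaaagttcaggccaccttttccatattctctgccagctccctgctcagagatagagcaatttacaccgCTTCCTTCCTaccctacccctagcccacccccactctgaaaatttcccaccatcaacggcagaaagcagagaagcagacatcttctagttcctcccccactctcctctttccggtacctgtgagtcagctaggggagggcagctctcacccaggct
ZAP70 (chr2:97713326-97713625, plus strand): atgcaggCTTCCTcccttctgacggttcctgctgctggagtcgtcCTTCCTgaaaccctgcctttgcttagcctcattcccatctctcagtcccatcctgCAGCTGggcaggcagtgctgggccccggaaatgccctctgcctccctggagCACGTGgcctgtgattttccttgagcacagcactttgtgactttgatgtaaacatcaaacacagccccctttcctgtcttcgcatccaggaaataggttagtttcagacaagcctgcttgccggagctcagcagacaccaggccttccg
LAT (chr16:28984802-28985101, plus strand): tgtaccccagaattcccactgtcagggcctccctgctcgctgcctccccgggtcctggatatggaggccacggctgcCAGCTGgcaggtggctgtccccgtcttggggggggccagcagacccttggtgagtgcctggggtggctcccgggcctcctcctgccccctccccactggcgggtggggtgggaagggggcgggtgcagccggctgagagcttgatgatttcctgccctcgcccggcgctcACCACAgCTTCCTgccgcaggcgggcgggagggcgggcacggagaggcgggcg
The table held 14 start windows for 7 of the 9 genes, and CD3E and CD3G had no entry. CACGTG was in 1 of the 14 windows, the ZAP70 window above, against 7.26% of all 35116 windows, and the other 2 ZAP70 windows lacked it. AGGAAG was in 7 of the 14 (33.6% of all windows), TGTGGT in 4 (13.1%) and CAGCTG in 3 (17.9%). In the CD3D window 2 AGGAAG matches overlap on the strand opposite to the one shown, and no other matches overlap in the 3 stretches. The LAT gene has a further start whose window, partly overlapping the one shown, held none of the 4 motifs. A match describes letters only and shows no binding.

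All but 1 of the 9 genes were abundant. Levels per length are given as CPM per kilobase of merged exon (GENCODE 29), since longer transcripts collect more reads. CD3D was highest, at 312 ± 10.2 in DOX and 362 ± 63.9 in DMSO, and exceeded 99.7% of tested genes by its mean over all libraries. LCK, the kinase that starts the cascade, followed at 190 ± 5.91 in DOX and 205 ± 12.1 in DMSO, and CD3E at 145 ± 4.53 and 144 ± 5.95. ZAP70 stood at 72.7 ± 1.70 in DOX and 82.3 ± 8.85 in DMSO, and CD3G at 41.2 ± 1.47 and 41.2 ± 2.86. Down to CD3G, no neighbours in this order overlapped in any library of either group. LCP2 (24.2 ± 0.811 in DOX, 22.7 ± 1.40 in DMSO), CD247 (20.7 ± 0.911 and 19.2 ± 1.83) and FYN (18.0 ± 0.345 and 21.1 ± 3.60) came next, and in DMSO their libraries overlapped. LAT was far below all of these, at 1.61 ± 0.159 in DOX and 0.968 ± 0.102 in DMSO, while the other 8 genes each exceeded at least 82.6% of tested genes. Scaling by the longest coding transcript kept the first 5 in the same order but put CD247 (49.8 in DOX, 46.1 in DMSO) above LCP2 (37.5 and 35.2), so the order among LCP2, CD247 and FYN depends on the length used.

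**Figure D1:**
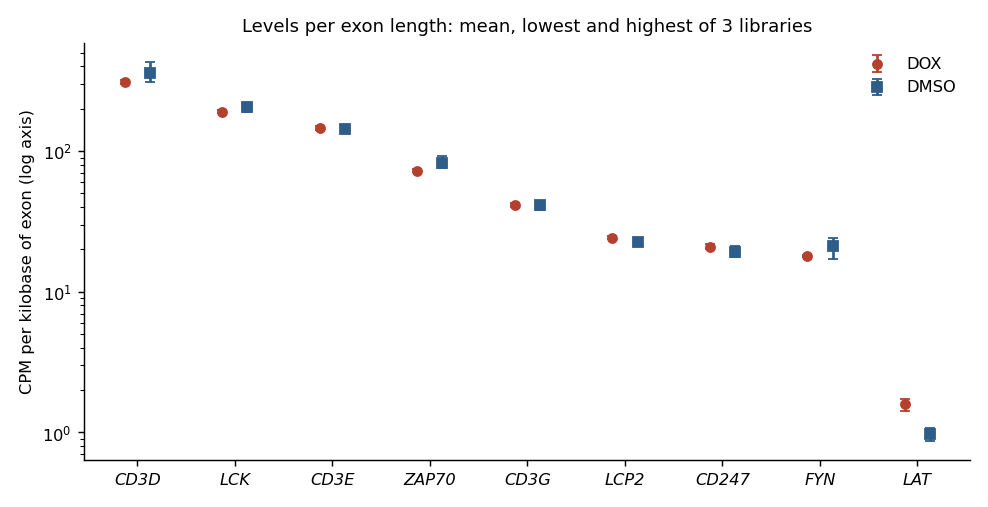
Level of each gene in CPM per kilobase of merged exon (log axis), DOX left of DMSO for each gene; points are means of 3 libraries and bars run from the lowest to the highest library. CD3D is highest, at 312 in DOX and 362 in DMSO, and LAT lowest, at 1.61 and 0.968.

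The question of the design is whether these transcripts changed once the guides were induced. Of the 9 genes, edgeR's quasi-likelihood test called 0 at a Benjamini-Hochberg adjusted p of 0.05, where it called 0.0313% of all genes tested (0.0125% higher and 0.0188% lower in DOX). The limma voom test also called 0, with the same percentages over all genes (0.0313%, 0.0125% and 0.0188%). At an unadjusted p under 0.05, 1 of the 9 passed in edgeR, against 26.0% of all genes. DESeq2 called 1, LAT, against 9.81% of the 14093 genes for which it gave an adjusted p (3.37% higher and 6.44% lower in DOX). The median log2 fold change, DOX over DMSO, was 0.00064 over the 9 genes and -0.0031 over all genes tested, and the median of its absolute size was 0.11 over the 9 genes and 0.22 over all. In 3 of the 9 genes the groups did not overlap (LAT and LCP2 above, ZAP70 below), where 30.2% of all genes did not overlap. Whether replicate libraries were grown as separate cultures is not stated, so a p-value reflects only how far these libraries differ, and that spread may be technical. In bulk RNA, fewer cells with a transcript and less of it per cell cannot be told apart.

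**Figure D2:**
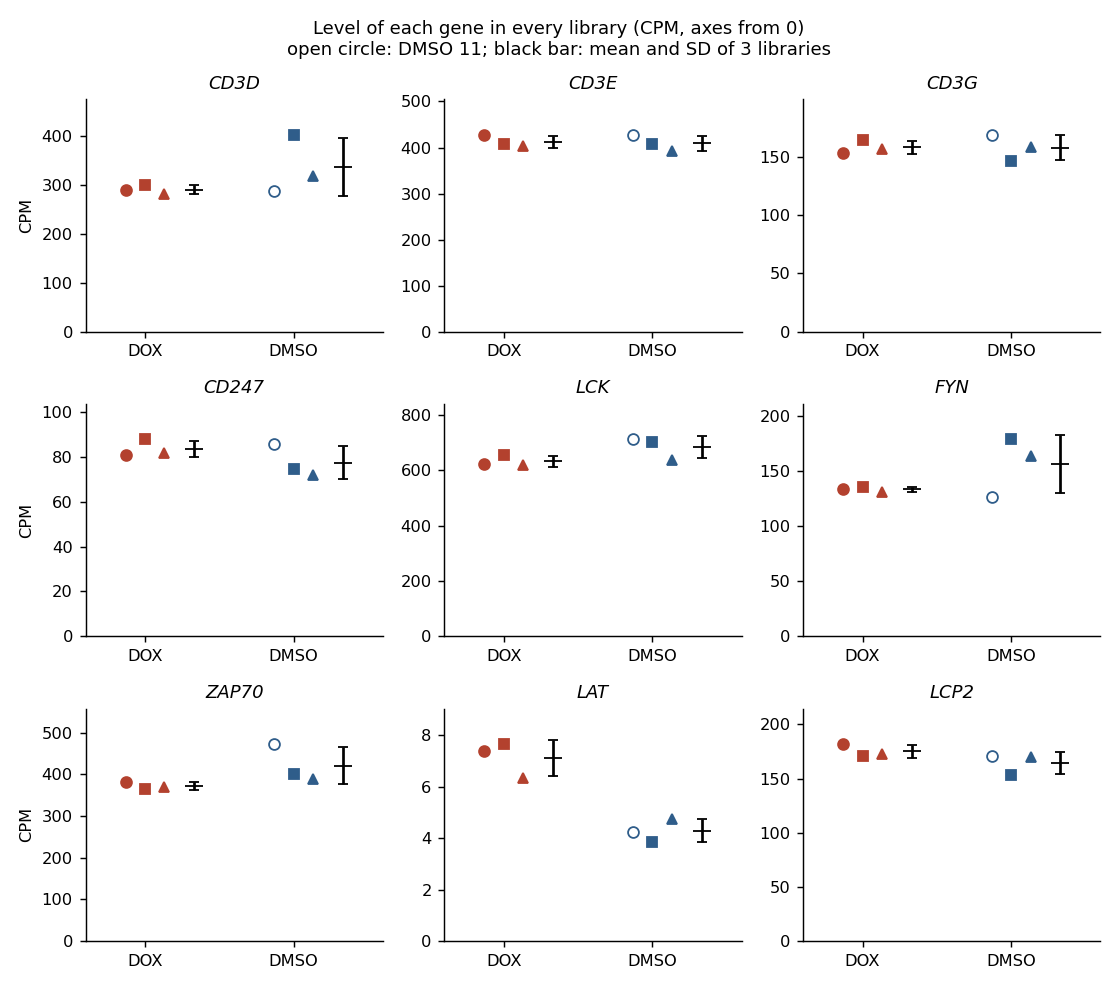
CPM of each of the 9 genes in every library, DOX left and DMSO right, with the mean and SD of 3 libraries in black and DMSO 11 as an open circle; each axis starts at 0. Only LAT, LCP2 and ZAP70 have groups that do not overlap, and CD3D and FYN have the widest DMSO spread relative to their means (coefficients of variation 17.7% and 17.0%), at 287 to 402 and 127 to 179 CPM.

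Among the CD3 chains, CD3E and CD3G were level between the groups. CD3E, the partner shared by both CD3 dimers, stood at 427, 408 and 403 CPM in DOX 12, 24 and 36, against 427, 407 and 393 CPM in DMSO 11, 23 and 35. The groups overlapped almost fully, and its log2 fold change was 0.013 ± 0.086 (SE), with a 95% interval from -0.18 to 0.21 (edgeR adjusted p = 0.932). CD3G, the gamma chain, had 153, 164 and 157 CPM in DOX, against 169, 147 and 158 CPM in DMSO. Its DOX libraries lay inside the DMSO range, with a log2 fold change of 0.00064 ± 0.085, an interval from -0.19 to 0.20 and an edgeR adjusted p of 0.997. These intervals leave room for changes of that size in either direction, so a smaller difference was not detectable with 3 libraries a group.

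CD3D, the delta chain, had a wide spread in DMSO, with a coefficient of variation of 17.7% on CPM, beside 17.0% for FYN. It had 289, 300 and 281 CPM in DOX 12, 24 and 36, against 287, 402 and 319 CPM in DMSO 11, 23 and 35. DMSO 23 was high and DMSO 11 lay within the DOX range, and the log2 fold change was -0.21 ± 0.13 (edgeR adjusted p = 0.311). The two-sided exact permutation p was 0.3, where 0.1 is the smallest that 3 libraries against 3 allow. Without DMSO 11 the change was -0.32 ± 0.082 and passed (edgeR adjusted p = 0.00352), in a fit that called 49.4% of all genes. Without DMSO 23 it was -0.067.

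CD247, the zeta chain, which carries most of the receptor's tyrosine motifs, had a positive fold change that did not pass. It had 80.9, 87.7 and 81.9 CPM in DOX, against 85.8, 74.7 and 71.7 CPM in DMSO 11, 23 and 35. DMSO 11 again lay among the DOX values, and the groups overlapped, with a log2 fold change of 0.11 ± 0.092 (edgeR adjusted p = 0.459). Without DMSO 11 CD247 was called higher, at 0.19 ± 0.067 (edgeR adjusted p = 0.0243), and no leave-out of another library gave a call.

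The 3 genes CD3E, CD3D and CD3G are next to each other on chromosome 11, with CD3D on the opposite strand to the other two (GENCODE 29 gene order), and their fold changes differed: 0.013, -0.21 and 0.00064. The ratio of CD3D to CD3E per kilobase does not depend on library scaling. It was 2.07, 2.25 and 2.13 in DOX 12, 24 and 36, against 2.06, 3.02 and 2.48 in DMSO 11, 23 and 35. DOX lay at the low end, beside DMSO 11, and the difference in log2 ratio of -0.21 did not exceed the spread (exact two-sided permutation p = 0.4, adjusted over 5 ratios 0.625). CD3G to CD3E differed by -0.011 and CD247 to CD3E by 0.099 on the same scale, with exact permutation p-values of 0.7 and 0.2. By summed level per kilobase over the 4 chains, CD3D made up 60.1 ± 0.607% in DOX and 63.6 ± 4.74% in DMSO (n = 3 each), and CD247 made up 3.99 ± 0.127% and 3.42 ± 0.576%.

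**Figure D3:**
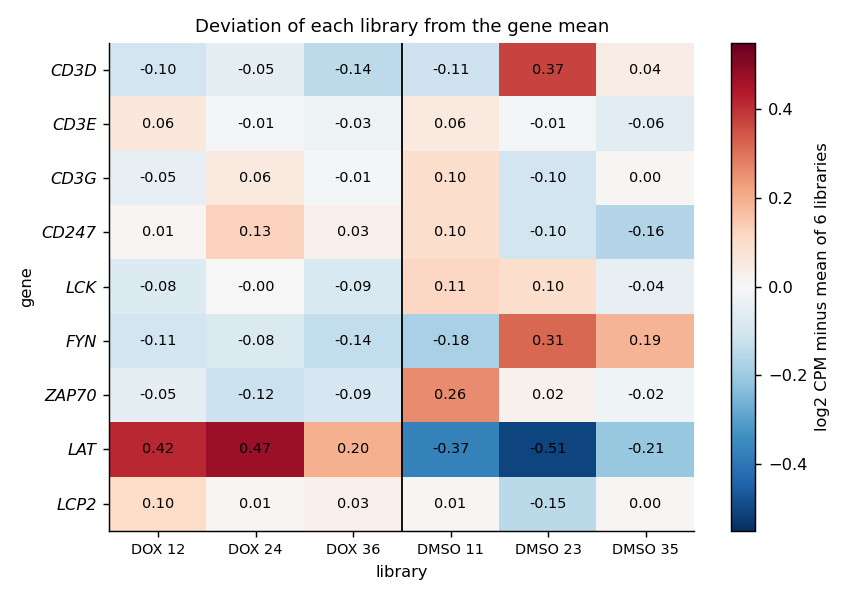
Deviation of log2 CPM from the gene's mean over 6 libraries, genes in rows and libraries in columns, DOX left of the line. LAT is above its mean in all DOX libraries (0.20 to 0.47) and below it in all DMSO libraries (-0.51 to -0.21), while CD3D and FYN are highest in DMSO 23.

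All 3 kinases had negative fold changes. With all libraries edgeR and DESeq2 called 0 of the 3, where they called 0.0313% and 9.81% of all genes. LCK had 624, 656 and 620 CPM in DOX, against 712, 703 and 638 CPM in DMSO 11, 23 and 35. DOX 24 exceeded DMSO 35, so the groups overlapped, and the log2 fold change was -0.11 ± 0.093, with an interval from -0.32 to 0.10 (edgeR adjusted p = 0.453). LCK has starts at separate promoters, and a count per gene does not tell their transcripts apart.

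ZAP70, the kinase that docks on the phosphorylated CD3 tails, had 381, 364 and 370 CPM in DOX 12, 24 and 36, against 472, 401 and 388 CPM in DMSO 11, 23 and 35. Each DOX library was lower than each DMSO library, as for 15.6% of all genes, and DMSO 11 was the highest. The log2 fold change was -0.18 ± 0.10 (edgeR adjusted p = 0.288, exact two-sided permutation p = 0.1). Without DMSO 11 it was -0.088. DOX was 0.35 below DMSO 11 and 0.087 below the mean of DMSO 23 and 35 (log2).

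FYN, the SRC family kinase that works beside LCK, had 134, 136 and 131 CPM in DOX, against 127, 179 and 164 CPM in DMSO 11, 23 and 35. DMSO 23 and 35 were high and DMSO 11 was below every DOX library. The log2 fold change was -0.23 ± 0.12 (edgeR adjusted p = 0.270). Without DMSO 11 FYN was called lower, at -0.36 ± 0.064 (edgeR adjusted p = 0.000107), and without DMSO 23 the value was -0.13. The ratio of FYN to LCK was 0.0966, 0.0935 and 0.0952 in DOX, against 0.0805, 0.115 and 0.116 in DMSO 11, 23 and 35, a log2 difference of -0.10 (exact two-sided permutation p = 0.4) that became -0.28 without DMSO 11. The ratio of ZAP70 to LCK averaged 0.384 ± 0.0191 in DOX and 0.401 ± 0.0306 in DMSO (n = 3 each; exact permutation p = 0.5).

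Of the adaptors, LAT, the membrane scaffold that ZAP70 phosphorylates, was higher in every DOX library, from a low level, and was called by DESeq2. It had 213, 219 and 182 reads in DOX 12, 24 and 36, against 119, 114 and 141 reads in DMSO 11, 23 and 35, or 7.37, 7.66 and 6.32 CPM against 4.25, 3.86 and 4.76 CPM. Every DOX library lay above every DMSO library (14.6% of all genes did so). The Poisson 95% intervals were lowest in DOX for DOX 36, 157 to 210 reads, and highest in DMSO for DMSO 35, 119 to 166 reads, so these 2 libraries overlapped within counting error. The log2 fold change was 0.73 ± 0.15, with an interval from 0.39 to 1.07.

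LAT passed DESeq2's Wald test (adjusted p = 0.00398) but missed the threshold in edgeR and limma voom (adjusted p = 0.0848 and 0.0922), with an exact two-sided permutation p of 0.1, the smallest possible. In the authors' deposited table, where 9.57% of genes were under an adjusted p of 0.05, LAT was at 0.73 with an adjusted p of 0.00473. The other 8 genes had adjusted p-values from 0.280 to 0.983 in the authors' deposited table. With no filter on low counts edgeR also called LAT (adjusted p = 0.00592), and it called 5.56% of all genes. The size held without DMSO 11 (0.72, edgeR adjusted p = 0.000285), and DOX was 0.73 above DMSO 11 and 0.72 above the mean of DMSO 23 and 35. By absolute fold change LAT exceeded 92.2% of all genes tested.

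LAT shares 2112 bases of exon with AC109460.3, a transcript on the same strand, and how reads on shared bases were assigned is not stated, so its reads are uncertain. AC109460.3 was at 2.66, 1.43 and 1.74 CPM in DOX, against 1.61, 1.83 and 1.62 CPM in DMSO. Its groups overlapped. The adjacent genes on the same strand were also at positive fold changes: SPNS1 at 0.74 ± 0.25 and NFATC2IP at 0.32 ± 0.11, with edgeR adjusted p-values of 0.126 and 0.141. NPIPB11, the next gene on the other side and on the opposite strand, was at 0.81 ± 0.31 (edgeR adjusted p = 0.156), and BOLA2-SMG1P6 beyond it was at -0.0085 ± 0.21 (edgeR adjusted p = 0.983). Their part in the LAT value was not tested.

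LCP2, the cytosolic adaptor that joins LAT to calcium signalling, had 182, 171 and 173 CPM in DOX 12, 24 and 36, against 171, 153 and 170 CPM in DMSO. All DOX libraries lay above all DMSO libraries, but DOX 24 and DMSO 11 differed by less than 0.1 CPM. The log2 fold change was 0.089 ± 0.084 (edgeR adjusted p = 0.506). LCP2 shares 123 bases of exon with C5orf58 on the opposite strand, which was at 0.730 to 1.25 CPM in DOX and 0.338 to 0.571 CPM in DMSO, and the strand setting of the counting is not stated.

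**Figure D4:**
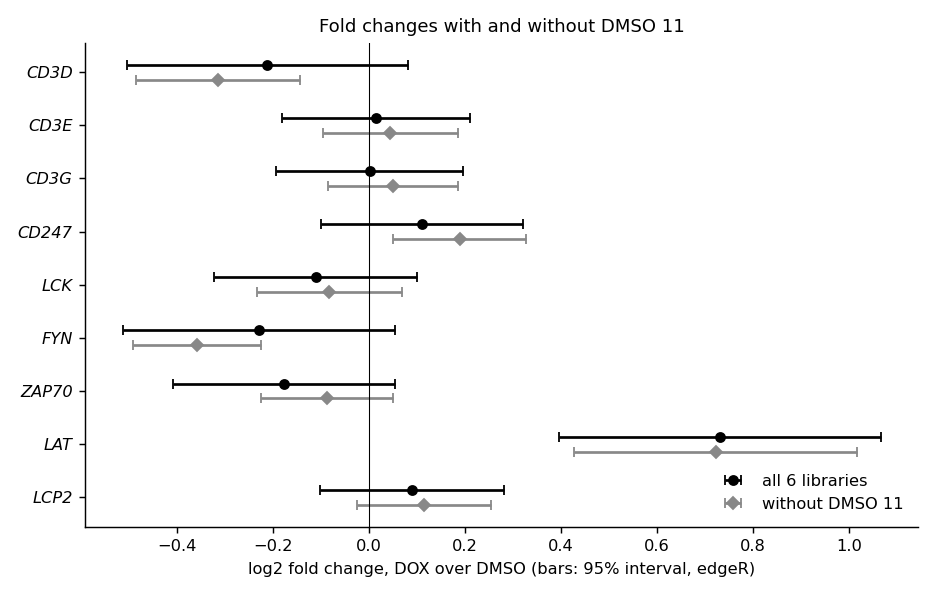
Log2 fold change of each gene, DOX over DMSO, with 95% intervals from edgeR, for all 6 libraries (black) and without DMSO 11 (grey). The LAT interval, 0.39 to 1.07, is above 0 in both fits, while those of CD3D, FYN and CD247 leave 0 only without DMSO 11.

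Without DMSO 11, edgeR called 4 of the 9 genes, LAT and CD247 higher and CD3D and FYN lower, where it called 49.4% of all genes (23.7% higher and 25.7% lower). DESeq2 without DMSO 11 gave the same count in each direction against 41.5% of all genes (20.0% higher and 21.4% lower), and voom also called 4, against 48.6% (23.2% higher and 25.4% lower). The share of the 9 genes called was thus near that of all genes, and the median over the 9 was 0.044.

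The wider pathway was read from 6 lists of 85 genes, 74 of them tested. EdgeR called 1 lower and 0 higher (1.35% of the 74, against 0.0313% of all genes), and DESeq2 called 6 lower and 2 higher of 72 (11.1%, against 9.81% of all genes). The median log2 fold change was -0.088. The edgeR call was PTPN6, the phosphatase SHP-1, which counters LCK and ZAP70: it stood at 73.2, 71.9 and 72.8 CPM in DOX, against 118, 136 and 130 CPM in DMSO. Every DOX library lay below every DMSO library, as for 15.6% of all genes. PTPN6 fell by 0.82 ± 0.082 on the log2 scale (edgeR adjusted p = 0.0263). EdgeR called 0 of the 74 genes when DMSO 23, DMSO 35 or any 1 DOX library was left out, and 0 at a threshold of 0.01. The PTPN6 call was lost in each of these settings, but so were nearly all calls. In those leave-outs edgeR called 0 of all genes, and at 0.01 it called 1 of all genes. With all 6 libraries PTPN6 was also called by DESeq2 (adjusted p = 3.23e-13) and limma voom (adjusted p = 0.0391).

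Among the 20 restraints on proximal signalling, DESeq2 called 3 lower and 1 higher, where it called 6.44% of all genes lower and 3.37% higher. Without DMSO 11 edgeR called 8 lower and 6 higher of the 20, against 49.4% of all genes in either direction. PTPN6 was joined by PTPN22, a phosphatase that acts on LCK, at -0.76 ± 0.18, and by the adaptor LAX1 at -0.55 ± 0.12, with DESeq2 adjusted p-values of 0.00571 and 0.00423. PTPRJ, a receptor phosphatase, was higher at 1.25 ± 0.23 (DESeq2 adjusted p = 0.000913). Its level was low, at 3.36 to 4.07 CPM in DOX and 1.22 to 2.11 CPM in DMSO. PTPN22, LAX1 and PTPRJ were chosen after their values were seen, and all missed the threshold in edgeR (adjusted p = 0.0913, 0.0892 and 0.0813). Each had non-overlapping groups, as did 30.2% of all genes, with DMSO 11 nearest to DOX. PTPN22 was at 13.2, 12.7 and 14.6 CPM in DOX, against 16.4, 26.1 and 25.9 CPM in DMSO 11, 23 and 35.

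The receptor chains themselves gave 1 DESeq2 call among 6 tested, where DESeq2 called 9.81% of all genes (6.44% lower). PTCRA, the pre-receptor's alpha-like chain, was lower at 3.95, 4.20 and 4.17 CPM in DOX, against 5.46, 7.17 and 7.73 CPM in DMSO 11, 23 and 35 (log2 fold change -0.73 ± 0.16, DESeq2 adjusted p = 0.00876, edgeR adjusted p = 0.0892). TRBC2, the beta constant gene, was the abundant chain, at 560 ± 7.84 CPM in DOX and 622 ± 59.7 CPM in DMSO, while TRBC1 had 0 counts. The gene ID of the TRBC1 row is absent from GENCODE 29, so its 0 counts may not describe the gene. The pair is near-identical, so how reads were split between them is also uncertain. The alpha constant gene TRAC was at 1.52 ± 0.295 CPM in DOX and 1.04 ± 0.511 CPM in DMSO. The gene ID of its row is also absent from GENCODE 29, so these low counts may not describe the gene. The gamma constant gene TRGC2 showed DMSO 11 apart, with 32.3, 30.6 and 29.4 CPM in DOX, against 25.7, 63.1 and 66.9 CPM in DMSO 11, 23 and 35. Its log2 fold change was -0.76 ± 0.30, and that of TRGC1 was -1.08 ± 0.45, with edgeR adjusted p-values of 0.166 and 0.176. TRGC1 was low and also showed DMSO 11 apart. It had 1.11, 1.08 and 1.22 CPM in DOX, against 0.821, 3.15 and 3.24 CPM in DMSO 11, 23 and 35.

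Coreceptors and costimulators had 0 calls among 7 tested by edgeR and 0 among the 6 with a DESeq2 adjusted p. Over all genes edgeR called 0.0313% and DESeq2 9.81%. Of the 7, 1 had an unadjusted edgeR p under 0.05, CD28, against 26.0% of all genes. CD28, the main costimulator, was at -0.24 ± 0.090, CD6 at -0.20 ± 0.10 and CD27 at -0.34 ± 0.22 (edgeR adjusted p = 0.153, 0.248 and 0.347). The coreceptors that bring LCK to the receptor were near absent: CD4 was at 0.360 ± 0.0416 CPM in DOX and 0.321 ± 0.106 in DMSO, CD8A at 0.244 ± 0.0604 and 0.478 ± 0.167, and CD8B lower still.

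The list of adaptors and enzymes around LAT had 20 tested genes, 19 of them with a DESeq2 adjusted p. DESeq2 called 1 of the 19, against 9.81% of all genes (3.37% higher): SH2D1A, the small adaptor SAP, which works with FYN. It had 193, 198 and 185 CPM in DOX, against 165, 124 and 112 CPM in DMSO 11, 23 and 35 (log2 fold change 0.52 ± 0.14, DESeq2 adjusted p = 0.0200, edgeR adjusted p = 0.0984). THEMIS, a thymocyte signalling protein, was at 0.464 ± 0.0553 CPM in DOX and 0.138 ± 0.00436 in DMSO, a level of few reads, and the adaptor NCK1 at -0.45 ± 0.15. Below LAT, DESeq2 called 2 of 18 genes, both lower, a share near the 9.81% of all genes called (6.44% lower): PRKCQ, the T cell protein kinase C, at -0.27 ± 0.072, and PPP3CA, the calcineurin catalytic subunit, at -0.81 ± 0.22, with DESeq2 adjusted p-values of 0.0294 and 0.0119. Both missed the threshold in edgeR (adjusted p = 0.0984 and 0.101). PRKCQ was at 68.0, 67.7 and 66.2 CPM in DOX, against 80.9, 80.9 and 81.9 CPM in DMSO. Its DOX libraries all lay below its DMSO libraries, as for 15.6% of all genes. PPP3CA held 33.7 CPM in DMSO 11 against 68.6 and 58.9 in DMSO 23 and 35, with 29.6 to 32.0 in DOX. The calcineurin regulatory subunit PPP3R1 was at -0.29 ± 0.11 (edgeR adjusted p = 0.148).

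ZAP70's relative SYK was below 0.1 CPM in both groups. Of 4 tested relatives of LCK and FYN, 0 were called by either test, where edgeR called 0.0313% and DESeq2 9.81% of all genes. At an unadjusted edgeR p under 0.05, 1 of the 4 passed, FGR, against 26.0% of all genes. FGR was at -0.87 ± 0.26, BLK at -0.16 ± 0.077 and SRC at 0.23 ± 0.15 (edgeR adjusted p = 0.110, 0.221 and 0.343). BLK stood at 68.7 ± 2.88 CPM in DOX and 76.9 ± 2.39 CPM in DMSO, and SRC at 88.5 ± 1.80 and 75.5 ± 17.7 CPM.

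**Figure D5:**
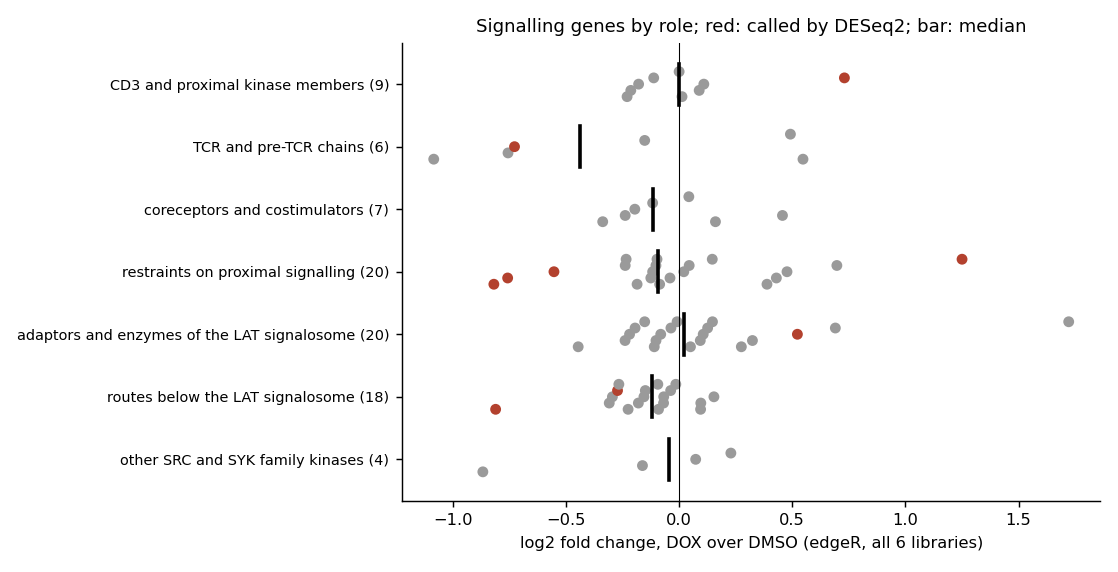
Log2 fold change (edgeR, all 6 libraries) of each tested gene, DOX over DMSO, by role, with the number tested in brackets; black bars are medians and red points are genes called by DESeq2. The median of the 9 genes is 0.00064 with LAT at 0.73 as their 1 call, and the restraints hold 4 calls, PTPN6 among them at -0.82.

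Some genes tracked the mean profile of the CD3 chains closely over the 6 libraries. The libraries share groups and scaling, so the values are a description. The mean profile ran only from -0.045 in DMSO 35 to 0.038 in DMSO 23 (log2). Single chains differed from it: in DMSO 23 CD3D deviated by 0.37, CD3E by -0.013, CD3G by -0.10 and CD247 by -0.10. Of 9300 genes of at least 10 CPM, ATP5L, an ATP synthase subunit, was most like the mean log2 profile of the 4 CD3 chains (Pearson r = 0.997 over 6 libraries), followed by ACOT8 (0.989) and the ribosomal protein gene RPS3 (0.987). In GENCODE 29 gene order ATP5L is the second tested coding gene beyond CD3G on chromosome 11, after UBE4A. ATP5L had 147, 165 and 139 CPM in DOX, against 170, 171 and 137 CPM in DMSO, and its log2 fold change was -0.081. The mean profile of LCK, FYN, ZAP70, LAT and LCP2 was most like those of LRRC28 (r = 0.991), CTD-3195I5.1 (0.984) and TMEM254 (0.983). It ran only from -0.044 in DMSO 23 to 0.056 in DOX 12 (log2), and single genes differed from it. In DOX 12 LAT deviated by 0.42 and LCP2 by 0.10, but LCK by -0.077, FYN by -0.11 and ZAP70 by -0.050. LRRC28, CTD-3195I5.1 and TMEM254 had positive log2 fold changes (0.15, 0.22 and 0.14), unlike the kinases.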

How the data were processed

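The labels' protocols describe total RNA made into stranded libraries read from both ends, 3 for DOX and 3 for DMSO. Read counts per gene are deposited by the authors as raw whole numbers. The authors' second table, per the file headers, lists for each gene a mean normalised signal, a log2 fold change with error, the test's score and p-values. The submitters' processing notes name STAR 2.5.2a, featureCounts, DESeq2 1.12.4 and hg19; the annotation and strand setting are not stated. Numbers in the count headers match no label, so columns were assigned to groups only.

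Genes passed edgeR's filterByExpr, TMM factors scaled the libraries, and edgeR 4.0.16 in R 4.3.3 compared DOX with DMSO (quasi-likelihood F test with robust dispersion, no other term). Benjamini-Hochberg adjustment covered all 15949 genes. SE is the absolute log2 fold change over the square root of F. Log2 CPM carried a prior count of 2. Alternatives were DESeq2 1.42.0, voom from limma 3.58.1, other scalings and filters, and leaving out libraries; the fits were tested on simulated counts. Exact permutation tests ran over all 20 assignments. The 92 spike-in rows, all at 0 counts, were dropped. GENCODE 29 gave exon lengths and gene order; its build differs from hg19, so gene positions are not printed. Poisson intervals cover counting error only.

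The 9 genes and all lists were chosen with earlier results of these data known. By rule the text names those 9 and the 3 genes most like each mean profile. From each other pathway list it names every gene that edgeR called, or otherwise the 3 with the smallest p. Further genes were named outside that rule: PTPN22, LAX1, PTPRJ, TRAC, TRBC1, TRBC2, CD4, CD8A, CD8B, SYK, single marker genes, and neighbouring or overlapping genes. The result of 1 marker list is not reported here.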

Additional observations from a re-analysis of the deposited data

How the results depend on the processing

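No paired analysis was possible because the count columns carry none of the labels' replicate numbers. EdgeR's count of called genes was 0 of the 9 and 1 of the 74 other pathway genes with all libraries, and 5 over all genes. DESeq2 gave 1, 8 and 1383 for the same 3 counts, edgeR with no filter on low counts 1, 10 and 1761, and a threshold of 0.01 gave 0 of the 74 and 1 over all genes. With 1 library left out, the counts ran from 0 to 4, from 0 to 46 and from 0 to 8109, and each upper end came without DMSO 11. In that fit edgeR called 62.2% of the 74 (16 higher and 30 lower), against 49.4% of all genes (23.7% higher and 25.7% lower). The alternatives added after the data were seen, DESeq2 and voom without DMSO 11, gave 4 and 4 of the 9, and 43 and 46 of the 74. Over all genes they gave 6806 and 7977 (41.5% and 48.6%).

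The median over the 9 genes was 0.034 with upper quartile scaling, -0.053 to 0.044 with 1 library left out, and 0.051 and 0.044 by DESeq2 and voom without DMSO 11. CD3G was at -0.012 with no filter. With 1 library left out, CD3E ran from -0.018 to 0.044 and CD3G from -0.053 to 0.050, so neither has a direction. The log2 ratios ran from -0.35 to -0.073 for CD3D to CD3E, -0.060 to 0.037 for CD3G to CD3E, 0.056 to 0.15 for CD247 to CD3E, -0.28 to -0.015 for FYN to LCK and -0.11 to -0.0057 for ZAP70 to LCK. LAT ran from 0.66 to 0.81, with edgeR adjusted p-values from 0.000285 to 0.344. Its call depended on the test and on DMSO 11, and its precision is limited by 114 to 219 reads a library. The cause of these differences was not tested.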
